A study of Homo sapiens with 2 samples.

Results

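The S100 genes encode small calcium-binding proteins, and 10 of them (S100A2, S100A4, S100A6, S100A8, S100A9, S100A10, S100A11, S100A14, S100A16 and S100P) were followed in HT29 cells, a cell line established from a human colon adenocarcinoma, after silencing of the transcription factor GATA6. The members were picked by symbol, with earlier results of these data known, and all 10 were found among the 13740 named genes that were counted. In these data S100A14 was 2.18-fold higher in the cells that received GATA6 siRNA. The other 9 members differed by less than 1.4-fold. The methods of the study counted a gene as regulated when it decreased by over 1.4-fold. Here that size was applied in both directions, so the increase of S100A14 falls outside the rule of the study. The table held 10 further S100 genes, and none of those reached 1.4-fold either.

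S100 proteins are built around a pair of EF-hands, helix-loop-helix motifs that bind calcium, and most of them work as dimers. Calcium opens a surface that docks onto target proteins, among them annexins, cytoskeletal proteins and enzymes. Some members also leave the cell and act on receptors such as RAGE and TLR4. In the gut, the S100A8 and S100A9 proteins form calprotectin, which is measured in stool as a sign of inflammation, and S100A4 and S100P are known for their raised levels in colon and pancreatic tumors. Most S100 genes lie together on chromosome 1, within and beside a block of genes for the outer layer of the skin called the epidermal differentiation complex.

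The control cells received control siRNA and the other cells received siRNA targeting GATA6. Both were HT29 cells without any further label of genotype, time or dose. Each condition was 1 microarray of total RNA, so no difference below has a replicate, a p-value cannot be computed, and having so few arrays limits the precision. The methods list 2 GATA6 siRNA duplexes and do not say which was used on the array, and the control array carries the word reanalyzed in its title. In bulk RNA, fewer cells of a type and less RNA per cell cannot be told apart.

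The deposited values are log2 values relative to the median of the 2 arrays. The log base was taken as 2 because the sources used here do not state it. The values of a gene in the arrays are therefore equal and opposite, and what they carry is the difference, given as GATA6 siRNA minus control siRNA. No expression level is left, so it is not known which S100 genes were abundant. GATA6 itself was at 0.58 in the control array and at -0.58 in the GATA6 siRNA array, a 2.22-fold lower value (log2 difference -1.15). The labels therefore match the direction of the targeted gene.

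The only measure of error at hand was the disagreement between probe sets of the same gene. Such probe sets read the same RNA samples, so this SD holds no variation between cultures. Whether it holds anything besides technical spread was not checked. In 470 genes with exactly 2 probe sets, the pooled SD of a probe set about its gene mean was 0.19 on the log2 scale. It is called the SD between probe sets below. Each of the 10 members was measured by 1 probe set, so none of them has such a check of its own. Over all 13740 genes the differences had a median of 0 and an SD of 0.25.

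The promoter windows of S100A14, of its neighbor S100A16 and of S100A9 are shown because these 3 members had the largest differences. The sequences are those of RefSeq on build GRCh38.p14, from 250 bases before to 50 bases after the annotated start site, written on the strand of the gene. Capitals mark the GATA motif in any of 4 forms, which are AGATAA, its variant ending in G, written AGATAG, and the versions of both that begin with T, written TGATAA for the former and TGATAG for the latter. Both strands were searched, and no copies overlapped in the windows shown.
S100A14, chr1:153616276-153616575, minus strand: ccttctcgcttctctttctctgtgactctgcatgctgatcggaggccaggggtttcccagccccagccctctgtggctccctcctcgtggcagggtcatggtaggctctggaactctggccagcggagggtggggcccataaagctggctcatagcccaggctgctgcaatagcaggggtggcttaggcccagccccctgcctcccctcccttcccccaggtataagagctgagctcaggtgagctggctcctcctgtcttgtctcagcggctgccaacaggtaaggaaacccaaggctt
S100A16, chr1:153613088-153613387, minus strand: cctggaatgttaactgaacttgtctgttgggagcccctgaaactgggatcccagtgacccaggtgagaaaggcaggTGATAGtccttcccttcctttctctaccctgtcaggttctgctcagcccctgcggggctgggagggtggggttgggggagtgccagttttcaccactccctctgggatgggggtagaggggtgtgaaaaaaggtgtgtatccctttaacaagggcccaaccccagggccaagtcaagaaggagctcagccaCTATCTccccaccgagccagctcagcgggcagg
S100A9, chr1:153357604-153357903, plus strand: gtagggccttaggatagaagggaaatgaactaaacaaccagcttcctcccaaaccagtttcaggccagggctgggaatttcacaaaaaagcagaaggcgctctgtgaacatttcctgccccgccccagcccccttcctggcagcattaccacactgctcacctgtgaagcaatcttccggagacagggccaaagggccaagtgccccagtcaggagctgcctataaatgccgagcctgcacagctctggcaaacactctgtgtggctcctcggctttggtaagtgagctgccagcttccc

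The motif was not found in the S100A14 or S100A9 window, and this says only that these letters are not in these 300 bases. In S100A16 it was found with its first base 174 bases before the start site, and again on the opposite strand from base 18 after it. The second annotated S100A16 window, around another start site, held none. RefSeq gave 14 windows for the 10 members, and 1 window, that of S100A16, held the motif, which is 7.14% of them. Among all 35116 windows of the same length 25.0% held it. The GC content of the member windows ranged from 51.3% to 71.7% with a median of 59.2%, compared with a median of 58.7% over all windows. Binding of GATA6 to these windows was not measured in this series.

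S100A14 encodes a divergent family member of epithelial cells whose C-terminal EF-hand lacks residues needed to hold calcium. Its value was -0.56 in the control array and 0.56 in the GATA6 siRNA array. The log2 difference of 1.12 was 5.85 times the SD between probe sets, and only 0.408% of all genes had a difference of larger size. It ranked 37th among the genes that were higher. Past 1.4-fold in the higher direction lay 1 of the 10 members, beside 3.56% of all genes counted, and past 2-fold again 1 of 10, beside 0.364%. In the lower direction 0 of 10 members passed 1.4-fold, beside 2.61%. In either direction the share was 10% of the members and 6.17% of all genes, so a count of 1 does not set the family apart.

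**Figure D1:**
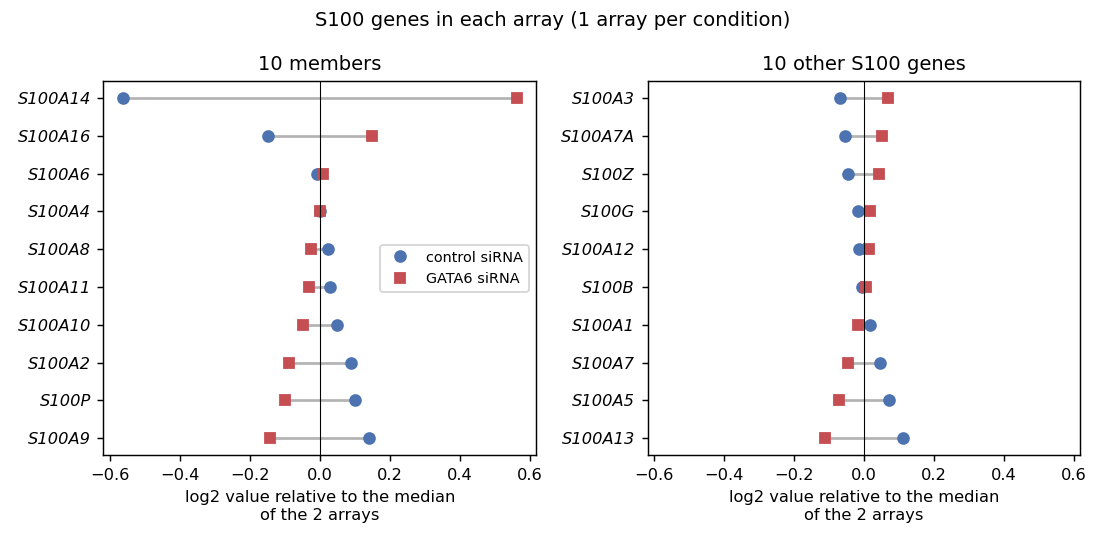
Values of the S100 genes in the control siRNA array (circles) and the GATA6 siRNA array (squares), as log2 values relative to the median of the 2 arrays, with the 10 members on the left and 10 other S100 genes on the right. S100A14 spans -0.56 to 0.56, and no other gene is farther than 0.15 from 0 in either array.

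S100A16, a widely expressed member whose gene is the nearest named neighbor of S100A14 on one side, was at -0.15 in the control array and 0.15 in the GATA6 siRNA array. The log2 difference was 0.30 (1.23-fold higher), which was 1.55 times the SD between probe sets. It had the same sign as S100A14 but was 0.83 smaller on the log2 scale. On the other side S100A13, a member involved in the release of growth factors that lack a signal peptide, was at 0.11 in the control array and -0.11 in the GATA6 siRNA array. Its log2 difference was -0.22 (1.17-fold lower), which was 1.16 times the SD between probe sets. The values on either side of S100A14 thus had opposite signs. When the ribosomal protein genes were set to 0, a rescaling described below, S100A16 was at 0.41 and S100A13 at -0.11. The latter lies within the SD between probe sets.

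S100A9 and S100A8 encode the subunits of calprotectin, which starves microbes of metal ions and is abundant in neutrophils. S100A9 was at 0.14 in the control array and -0.14 in the GATA6 siRNA array, so that it was 1.22-fold lower (log2 difference -0.28). This was the largest decrease among the members and 1.47 times the SD between probe sets, and 17.1% of all genes had a difference of larger size. S100A8 was at 0.02 in the control array and -0.02 in the GATA6 siRNA array. Its log2 difference of -0.05 lies within the SD between probe sets. The S100A8 value was thus near 0 while that of its partner was 0.24 lower on the log2 scale. S100A12, the third calgranulin, had a difference of 0.03.

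S100P, a ligand of RAGE that is often raised in tumors of the pancreas and colon, was at 0.10 in the control array and -0.10 in the GATA6 siRNA array. The log2 difference was -0.20 (1.15-fold lower), just over the SD between probe sets. S100P is the only member outside chromosome 1 and lies on chromosome 4. The nearest named genes before and after it were MRFAP1, with a difference of 0, and MRFAP1L1, with a difference of -0.08. S100A2, a nuclear member of squamous and basal epithelium that can bind p53, was at 0.09 in the control array and -0.09 in the GATA6 siRNA array. Its log2 difference of -0.18 (1.13-fold lower) was within the SD between probe sets.

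The remaining members, which act on the cytoskeleton and on membranes, were within 0.10 of 0. S100A10, known as p11, has lost calcium binding and is held open as the partner of annexin A2. It was at 0.05 in the control array and -0.05 in the GATA6 siRNA array, a log2 difference of -0.10. S100A11, or calgizzarin, which binds annexin A1, had values of 0.03 in the control array and -0.03 in the GATA6 siRNA array and a difference of -0.06. S100A6, or calcyclin, had a difference of 0.02. S100A4, or metastasin, which binds non-muscle myosin and is linked to cell motility and metastasis, was listed at exactly 0 in both arrays. Exact zeros occurred in 443 of the 13740 genes, S100A4 included, and what produced them is not known.

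**Figure D2:**
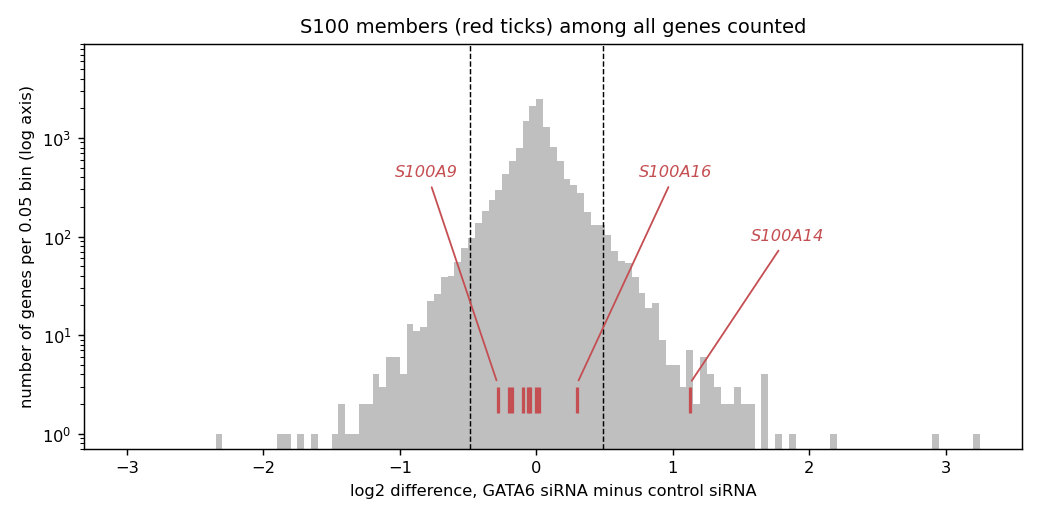
Distribution of the log2 difference, GATA6 siRNA minus control siRNA, over 13740 genes in bins of 0.05 (log axis), with the 10 members as red ticks and dashed lines at 1.4-fold (0.49). S100A14 at 1.12 is the only member beyond a dashed line, and the other 9 lie between -0.28 and 0.30.

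As a group the members had a median difference of -0.05, with 6 below 0, 3 above and 1 at 0. Of all 13740 genes 6668 were below 0 and 6629 above. Without S100A14 the median of the 9 others was -0.06. The SD over the 10 members was 0.41, beside 0.25 over all genes. Leaving out S100A14 brought it to 0.17, but removing the most extreme member lowers an SD by construction. Of the 10 members 6 (60%) lay within the SD between probe sets, and so did 72.7% of all genes. The signs of the small differences depend on the scaling between the arrays. When the genes of ribosomal proteins were set to 0, which adds 0.11 to every difference, S100A8 (0.06), S100A10 (0.02) and S100A11 (0.05) turned to higher values. S100A4 became 0.11 and the median of the members 0.06. S100A9 (-0.17), S100P (-0.09) and S100A2 (-0.07) stayed lower, and S100A14 was 1.24 higher.

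The 10 other S100 genes were read beside the members. Several are known from other tissues. Without levels, a value near 0 cannot separate an unchanged gene from a gene that was not expressed in HT29 cells. They ranged from -0.22 for S100A13 to 0.14 for S100A3, with a median of 0.02, and 9 of 10 lay within the SD between probe sets. S100A5, found in olfactory neurons, had a difference of -0.14. S100A7, psoriasin, and its near-identical copy S100A7A had differences of -0.09 and 0.11, and the array may not separate their transcripts. S100A1, a regulator of calcium handling in muscle, was at -0.03, and S100B, the glial member, at 0.01. S100G, the calbindin that carries calcium through the intestinal absorptive cell, had a difference of 0.04 and S100Z of 0.09. S100A14 was the only 1 of all 20 S100 genes past 1.4-fold, which is 5% of them beside the 6.17% of all genes.

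Position along the chromosome was examined next. From S100A10 to S100A1 the RefSeq annotation of GRCh38.p14, used here for gene order only, placed 61 named genes, of which 16 were S100 genes and 45 were others. Of those 45 genes 0 passed 1.4-fold, beside 6.17% of all genes, and they ranged from -0.25 for LCE1C to 0.45 for SPRR1B with a median of 0.01. SPRR1B, which encodes a cross-linked protein of the cornified envelope, passed 1.4-fold when the ribosomal protein genes were set to 0 (0.56). S100A14 was thus the only named gene of the segment past 1.4-fold on the deposited scale. Here too, and for the skin genes below, values near 0 cannot separate unchanged genes from genes that were not expressed.

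**Figure D3:**
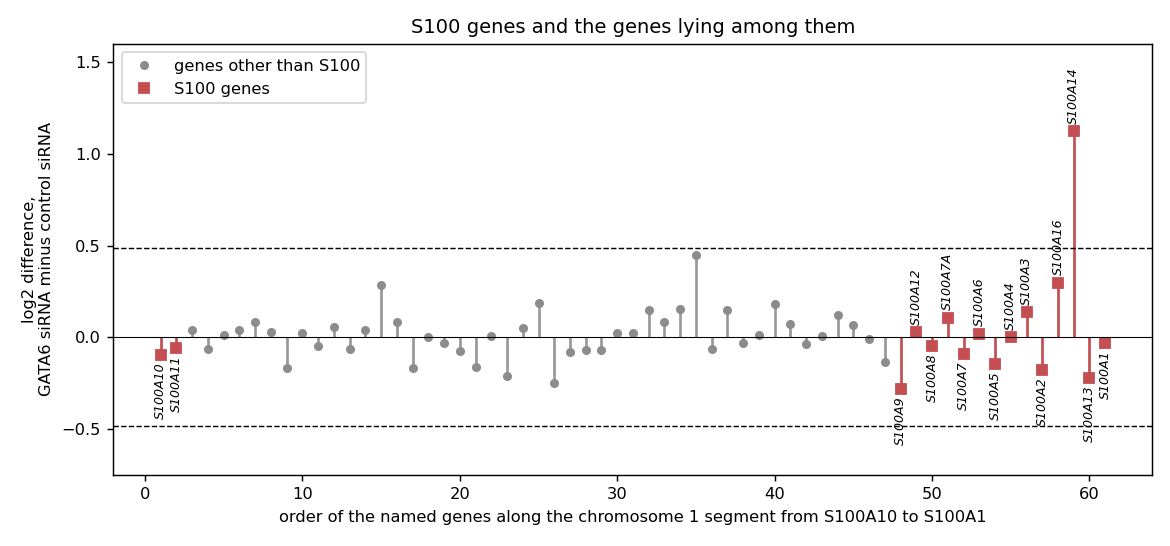
Log2 difference, GATA6 siRNA minus control siRNA, of the 61 named genes from S100A10 to S100A1 in their order along chromosome 1, with S100 genes as red squares, other genes as grey circles and dashed lines at 1.4-fold (0.49). S100A14 stands at 1.12 between S100A16 at 0.30 and S100A13 at -0.22.

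The epidermal differentiation complex holds genes of the cornified envelope together with the fused-type S100 genes, in which an S100 domain is joined to a long repeat protein. Of the 7 fused-type genes 0 passed 1.4-fold, beside 6.17% of all genes, and they ranged from -0.17 for CRNN, cornulin, to 0.08 for FLG, filaggrin. TCHH, trichohyalin of the hair follicle, was at -0.06 and HRNR, hornerin, at 0.04. Of 37 other genes of the complex 0 passed 1.4-fold, with a median of 0.01. After SPRR1B the largest were LCE3B (0.28), LCE1C (-0.25) and KPRP (-0.21). Scaled to the ribosomal protein genes, the fused-type genes had a median of 0.14 and the other genes of the complex of 0.12.

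Several genes of proteins that bind S100 proteins had larger differences than the S100 genes they pair with. Of 20 listed partners 11 were in the table, of which 2 were higher and 1 was lower by over 1.4-fold (27.3%, beside 6.17% of all genes), with a median of 0.16. This list and those below were chosen with earlier results of these data known, which may raise such shares. ANXA1, the annexin that S100A11 binds, was at -0.55 in the control array and 0.55 in the GATA6 siRNA array. It was 2.15-fold higher (log2 difference 1.10), whereas S100A11 was at -0.06. ANXA2, which joins S100A10 in a tetramer at the plasma membrane, was at 0.27 in the control array and -0.27 in the GATA6 siRNA array. It was 1.45-fold lower (log2 difference -0.53), whereas S100A10 was at -0.10. The annexins of these complexes thus differed in opposite directions while their S100 partners stayed near 0. Scaled to the ribosomal protein genes, ANXA2 no longer passed 1.4-fold (-0.42).

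EZR encodes ezrin, a linker of membrane and actin that S100P activates. It was at -0.31 in the control array and 0.31 in the GATA6 siRNA array, 1.54-fold higher (log2 difference 0.62), whereas S100P had the opposite sign at -0.20. IQGAP1, a scaffold protein that also binds S100P, had a difference of 0.16, and S100PBP, the nuclear S100P-binding protein, of 0.11. SEPTIN2, a septin of the cytoskeleton, was 1.29-fold higher (0.36), which is below 1.4-fold. Of the partners of S100A6, ANXA11 had a difference of 0.02 and CACYBP, the calcyclin-binding protein, also of 0.02, the same as S100A6 itself. AHNAK, the giant scaffold held by S100A10 and annexin A2, was at 0.25.

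**Figure D4:**
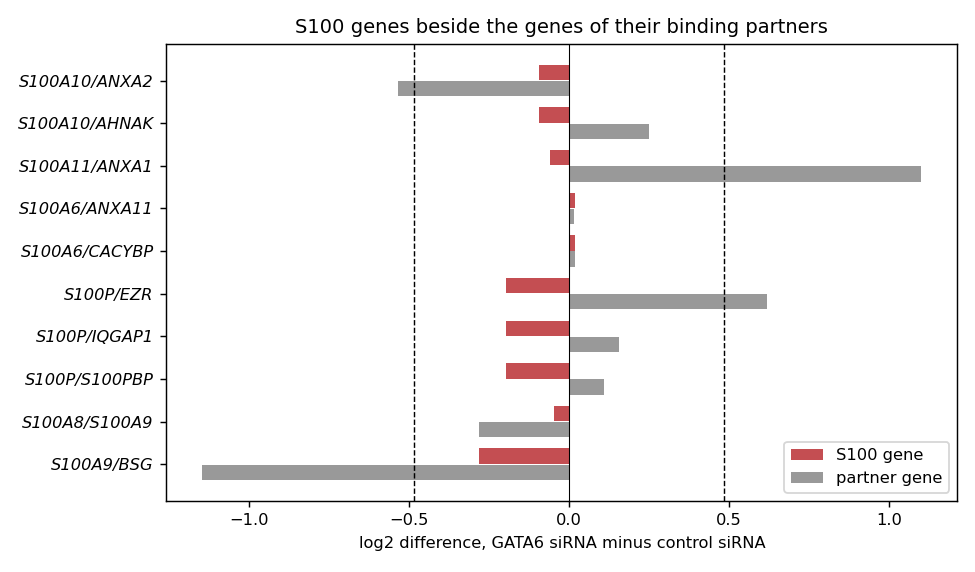
Log2 difference, GATA6 siRNA minus control siRNA, of S100 genes (red bars) and of genes whose proteins bind them (grey bars), with dashed lines at 1.4-fold (0.49). The grey bars of ANXA1 (1.10), EZR (0.62), ANXA2 (-0.53) and BSG (-1.15) lie past a dashed line and the red bars do not. S100A14 (1.12), which is past 1.4-fold, has no bar because its pairs were not drawn.

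Receptors for S100 proteins outside the cell were all 7 in the table. BSG, which encodes basigin, a membrane glycoprotein that binds S100A9 and chaperones lactate transporters, was at 0.57 in the control array and -0.57 in the GATA6 siRNA array. It was 2.22-fold lower (log2 difference -1.15) and the only receptor past 1.4-fold (14.3% of the 7, beside 6.17% of all genes). AGER, which encodes RAGE, had a difference of 0.26 as the mean of 7 probe sets. NPTN, neuroplastin, was at 0.23, and ALCAM, an adhesion molecule of the immunoglobulin superfamily, at -0.17. TLR4, the receptor of bacterial lipopolysaccharide, was at 0.03 and CD36, a scavenger receptor, at 0. The median of the 7 was 0.03. Of the 9 listed genes of the plasminogen system, which S100A10 helps to localize at the cell surface, only PLG was in the table, with a difference of -0.04.

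Genes of other proteins with EF-hands were read in the same way. Of 34 listed genes 17 were in the table and 1 passed 1.4-fold (5.88%, beside 6.17% of all genes), a share near that of all genes. It was CALU, which encodes calumenin of the secretory pathway (1.88-fold higher, log2 difference 0.91). PLS1, the fimbrin of intestinal microvilli, was at -0.46 (-0.50, past 1.4-fold, after quantile normalization), NUCB1, a nucleobindin of the Golgi, at 0.38, and SRI, sorcin, at -0.34. The median was -0.07 and turned to 0.04 when scaled to the ribosomal protein genes, where NUCB1 passed 1.4-fold (0.50).

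Markers of cell types were read beside these values, although without levels their presence in HT29 cells could not be checked. Of 9 markers of colon epithelium 8 were in the table. All 8 were above 0 (median 0.28), as were 6629 of all 13740 genes. They ran from VIL1, villin (0.02), to KRT20, a keratin of differentiated colon cells (1.89). Within the SD between probe sets lay 3 of the 8, which were VIL1, CDX1 (0.11) and CDX2 (0.02). CEACAM5, the carcinoembryonic antigen, was at 2.16. KRT19 (0.54) and EPCAM (0.49) also passed 1.4-fold in the direction of S100A14, although EPCAM did not after quantile normalization (0.46). With KRT20 these were 3 of the 8 markers (37.5%), beside 3.56% of all genes that were higher by over 1.4-fold. The markers were chosen with earlier results of these data known, so this share may be raised by the choice. The 4 measured markers of squamous epithelium lay between -0.05 and 0.06, and 0 passed 1.4-fold. Myeloid cells are the cells richest in calgranulins, and of 6 myeloid markers 4 were in the table. Among them MPO was at -0.22, CD14 at -0.04, CSF1R at 0 and LYZ at 0.47, which passed 1.4-fold only when scaled to the ribosomal protein genes (0.58). Fibroblasts were represented by DCN (-0.02) and endothelium by VWF (0.03). Both arrays were of a cultured cell line, so these values do not measure amounts of such cell types. Any relation of the marker genes to the S100 values was not tested.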

How the data were processed

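Total RNA of HT29 cells was extracted with TRIsure and NucleoSpin RNA II. According to the methods, the authors used Human Gene 2.0 ST arrays of Affymetrix and evaluated them in GeneSpring. The authors deposited values of 44629 probe sets, which were taken as log2 values. The 2 values cancel within 1e-06 in all 44629 rows, and the median of each column is 0. For summarization, normalization and filters, the steps were not given in the sources used here.

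Probe sets with 1 symbol (15835) received gene names from GEO's annotation of the array. Probe sets of the same gene were averaged. Counted were 11910 protein-coding genes, 1387 lncRNA genes and 443 transcribed pseudogenes. Groups were taken from the treatment labels. With 1 array per group no test was run. Genes past 1.4-fold (0.49 on the log2 scale) and list medians were set beside all genes. All members were named, with other S100 genes, GATA6 and up to 4 genes per list by size. Other genes named were chosen after their values were seen. The members and lists were chosen with earlier results of these data known. Promoters were those of RefSeq. The calculation was tested on simulated data (Python 3.11.15, pandas 2.3.3).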

Additional observations from a re-analysis of the deposited data

How the results depend on the processing

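Of the members S100A14 passed 1.4-fold under each scaling tried, from 1.02 with quantile normalization to 1.24 with ribosomal protein genes set to 0. This says little about error, since both scalings keep the order of the probe sets on these 2 mirrored columns. With ribosomal protein genes set to 0, 203 genes were lower and 809 higher by over 1.4-fold, compared with 359 and 489, and lower genes made up 20.1% in place of 42.3%. With quantile normalization the numbers were 426 and 412 (50.8% lower). At a 1.2-fold size, 1 member was lower (S100A9) and 2 were higher (S100A14 and S100A16), beside 1190 lower and 1407 higher genes. Past 2-fold lay 33 lower and 50 higher genes. The counts at other sizes follow from the size, and those with ribosomal protein genes set to 0 from the added constant. On mirrored columns quantile normalization makes the differences of all probe sets symmetric about 0. The nearly equal numbers of lower and higher genes therefore follow from the method. Read on the given strand only, the GATA motif was in 14.2% of all promoter windows. The median of the members stayed between -0.06 and -0.05 when each member was left out in turn. Over all 20 S100 genes, a choice made after seeing the data, it was -0.02. Taking the median or the largest probe set changed no member, since each had 1. No paired analysis was possible because there was only 1 array per condition. The distance of the signals from background is not known.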
